A study of Capra hircus with 10 samples.

Results

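The genes described here encode the enzymes of fatty acid synthesis, desaturation, elongation, activation and oxidation, with those of ketone body use and the coenzyme A enzyme PANK1, in whole goat ovaries of the luteal and the follicular phase. The list names genes by pathway and sets no limit on a measured value, but it was drawn up with earlier results of these data known. Its members are protein-coding symbols of the deposited transcript table, and 42 of the 43 listed symbols were found there among 20587. ACADM was not analysed here. RNA of 10 ovaries of Anhui white goats was sequenced, 5 ovaries labelled luteal phase and 5 labelled follicular phase, with no treatment in either group, and the age of the goats is not given. The ovaries came from a slaughterhouse and each gave 1 library, but no source states that the ovaries of a phase came from different goats. The p-values treat the ovaries as independent and would be too small if ovaries of a phase shared a goat.

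A cell makes long-chain fatty acids in the cytosol. Acetyl-CoA is carboxylated to malonyl-CoA and condensed by fatty acid synthase, and the product is then lengthened by elongases and given double bonds by desaturases in the endoplasmic reticulum. Fatty acids are burned in mitochondria, after acyl-CoA synthetases have activated them and the carnitine system has carried them across the membranes, and also in peroxisomes. In the ovary, the corpus luteum that forms after ovulation makes progesterone from cholesterol, and its cells hold many mitochondria and lipid droplets, while follicles hold granulosa cells, theca cells and the oocyte.

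Values are FPKM, a fragment count of a transcript corrected for transcript length and for the size of the library, summed over the transcripts of a gene symbol. Because FPKM is per length, levels of different genes are set side by side below. This is a rough guide only, since no other difference between transcripts is corrected for. The number of fragments behind each value is unknown, since the files used here give FPKM and no counts. A two-sided limma test on log2(FPKM + 0.1) gave the difference, luteal minus follicular. P-values were adjusted by Benjamini-Hochberg across every gene tested, and an adjusted p under 0.05 is named a call. A positive fold change therefore means a higher level in the luteal phase, and the pseudocount of 0.1 understates the change of low genes. Testing required 0.1 FPKM in 5 or more ovaries, which all 42 genes met and 15359 genes met in all.

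The libraries held no identical pair, and summed FPKM per ovary ran from 452508 to 503276 in luteal phase ovaries and from 492324 to 540124 in follicular phase ovaries. The markers went with the phase labels. Of the luteal cell markers, 7 of 7 in the table, among them STAR and CYP11A1, were called higher in the luteal phase, with a summed FPKM of 5939 to 8093 against 132 to 184. Endothelial markers (5 of 5 called higher, summed FPKM 184 to 236 against 79.7 to 92.6) and macrophage markers (3 of 5 called higher, 145 to 196 against 45.9 to 97.0) moved the same way, as did 3 of 6 stromal markers (3352 to 5619 against 2591 to 3689). The 2 theca markers (17.1 to 69.2 against 139 to 202), 3 of 6 granulosa markers (92.0 to 639 against 203 to 1054) and 5 of 8 oocyte markers (8.41 to 19.8 against 16.4 to 46.8) were called lower. Adipocyte markers were low in both phases (3.17 to 5.27 against 2.28 to 3.84, with 2 of the 5 tested called higher), ADIPOQ reached at most 0.361 FPKM and PCK1 was listed at 0 in every luteal phase ovary. Striated muscle markers were at 4.29 to 10.2 against 7.76 to 13.3, and the 3 red blood cell markers in the table at no more than 0.758 in any ovary. The part of these cell types in the results below was not tested, and in whole ovaries fewer cells of a type and less RNA per cell cannot be told apart.

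The luteal phase ovaries carried more transcript of most of the fatty acid genes. Of the 42 genes, 26 were higher in the luteal phase and 6 were lower, while 10 were not called. Among all genes tested, 43.7% were called, 15.9% higher and 27.8% lower in the luteal phase. The fatty acid genes were thus called in 76.2% of cases, with 61.9% higher and 14.3% lower. Their median log2 fold change was 0.42, against -0.14 over all genes tested. The balance over all genes depends on scaling, with 2439 higher and 4272 lower as deposited, 2910 and 3055 after the ovaries were shifted to a common median and 2884 and 2610 on the TPM scale, whereas the fatty acid genes gave 27 higher and 5 lower under both of those scalings. All luteal phase ovaries lay on the same side of all follicular phase ovaries for 18 of the 42 genes, which is 42.9%, against 28.4% of all genes tested. A change of at least 1 on the log2 scale together with a call was found for 8 of the 42 genes (19.0%), against 9.63% of all genes. All 8 were higher in the luteal phase, where 5.52% of all genes passed both limits upward and 4.11% downward. The genes together held 0.268 to 0.353% of the summed FPKM in luteal phase ovaries and 0.181 to 0.214% in follicular phase ovaries.

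**Figure D1:**
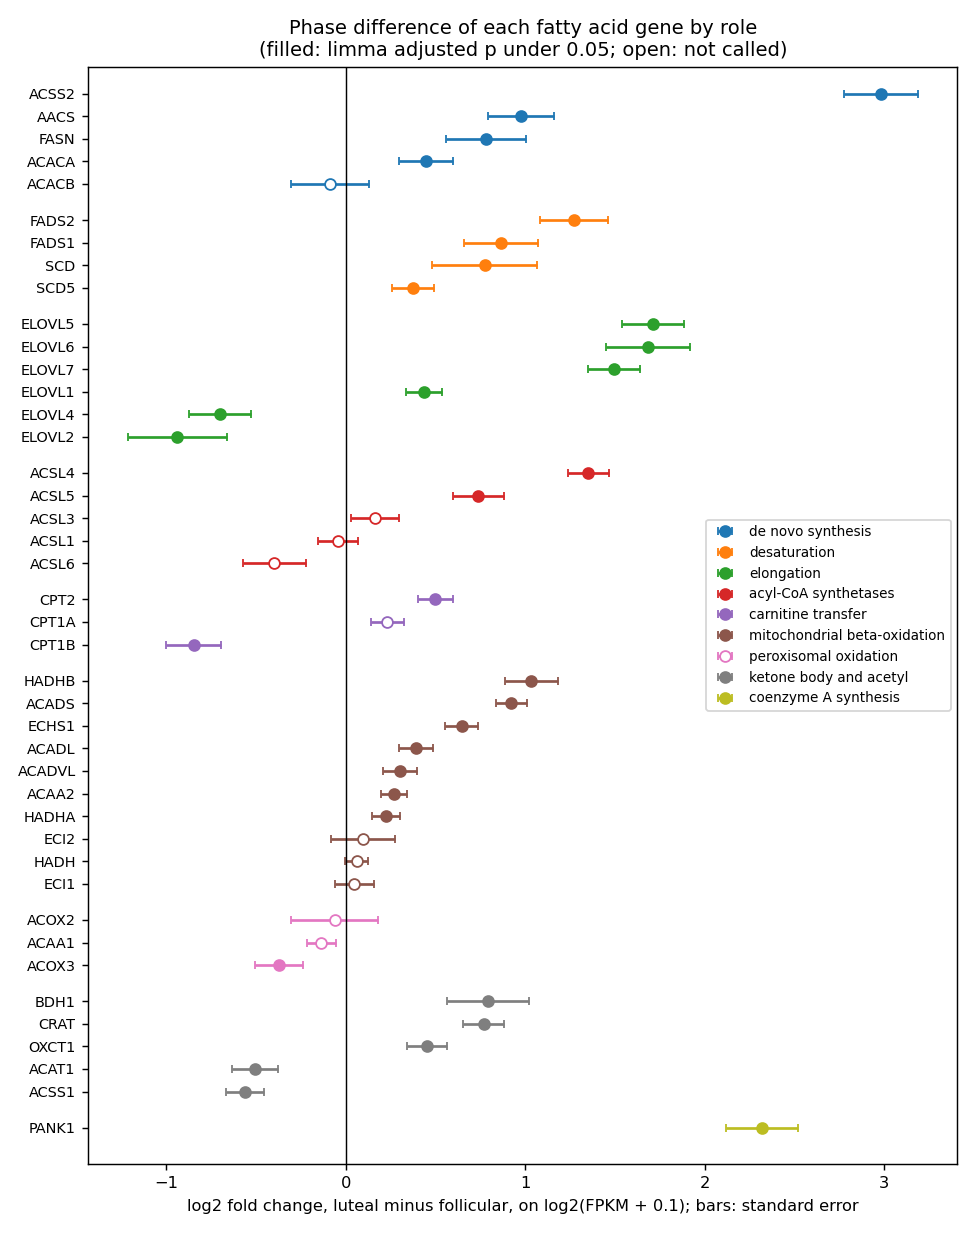
Log2 fold change (luteal minus follicular, x axis, on log2(FPKM + 0.1)) of each of the 42 genes, grouped and coloured by role, with the standard error as bars. Filled points are called at a limma adjusted p under 0.05 and open points are not; ACSS2 at 2.98 and PANK1 at 2.32 lie farthest to the right, while ELOVL2 at -0.94 and CPT1B at -0.85 lie farthest to the left.

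The synthesis of new fatty acids starts from acetyl-CoA. ACSS2, the cytosolic enzyme that makes acetyl-CoA from acetate, which is a main carbon source for fat in ruminants, showed the largest change of the 42 genes. Its FPKM was 91.2, 81.9, 62.3, 129 and 121 in luteal phase replicates 1 to 5 and 14.3, 8.15, 13.2, 11.2 and 13.3 in follicular phase replicates 1 to 5. The lowest luteal phase ovary was more than 4 times the highest follicular phase ovary. The log2 fold change was 2.98 (standard error 0.21, limma adjusted p = 1.82e-06). AACS, which makes acetoacetyl-CoA in the cytosol for lipid synthesis, was at 18.7 ± 4.47 in luteal phase ovaries and 9.24 ± 1.47 in follicular phase ovaries (SD, n = 5 a phase), and the log2 fold change was 0.98 (limma adjusted p = 0.00159). Luteal phase replicate 3, at 10.8, lay inside the follicular phase range for AACS.

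The enzymes that commit acetyl-CoA to fat changed less. FASN, fatty acid synthase itself, was at 24.5, 16.01, 10.4, 17.3 and 21.98 FPKM in luteal phase replicates 1 to 5 and at 13.7, 11.6, 8.45, 8.99 and 8.35 in the follicular phase. The phases overlapped through luteal phase replicate 3, and the log2 fold change was 0.78 (standard error 0.22, limma adjusted p = 0.0148). ACACA, the cytosolic acetyl-CoA carboxylase, was at 15.7, 12.6, 10.1, 12.8 and 15.4 in luteal phase ovaries and at 12.4, 11.1, 8.47, 8.62 and 8.16 in follicular phase ovaries. These ranges also overlapped, and the log2 fold change, 0.45 (standard error 0.15, limma adjusted p = 0.0322), was not called in 6 of 10 analyses with 1 ovary removed, namely without luteal phase replicate 1, 4 or 5 or follicular phase replicate 3, 4 or 5, where the adjusted p ran from 0.0565 to 0.0772. ACACB, the carboxylase of the mitochondrial surface whose malonyl-CoA restrains fatty acid import, was low, at 0.659 ± 0.164 and 0.712 ± 0.193, and was not called (log2 fold change -0.09, adjusted p = 0.758). The ratio of ACACA to ACACB within an ovary overlapped between the phases, at 12.1 to 30.1 in luteal phase ovaries and 8.98 to 21.2 in follicular phase ovaries.

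All 4 desaturases were called higher in the luteal phase, as were 15.9% of all genes tested. SCD, which puts the first double bond into stearate and palmitate, had the highest mean level of the 42 genes over the 10 ovaries. It was at 155, 165, 86.3, 198 and 210.5 FPKM in luteal phase replicates 1 to 5 and at 149.9, 103, 57.1, 111 and 64.7 in the follicular phase. Its spread was wide in each phase and the ranges overlapped. The log2 fold change, 0.77 (standard error 0.29, limma adjusted p = 0.0495), sat just under the threshold and was not called in 13 of 19 alternative analyses. The call was lost in 8 of 10 analyses with 1 ovary removed, the exceptions being luteal phase replicate 3 and follicular phase replicate 1, with adjusted p up to 0.113. Without luteal phase replicate 3 the log2 fold change was 0.99.

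SCD5, a second stearoyl-CoA desaturase, was at 44.1 to 67.0 in luteal phase ovaries and 36.6 to 47.5 in follicular phase ovaries (log2 fold change 0.37, limma adjusted p = 0.0228), a call that was lost without luteal phase replicate 4 or 5 or follicular phase replicate 5 (adjusted p of 0.0587, 0.0514 and 0.0512) and after quantile normalization (0.0573). FADS2, the delta-6 desaturase that starts the path from essential to long polyunsaturated fatty acids, was at 54.1, 57.0, 31.2, 65.4 and 65.2 FPKM in luteal phase replicates 1 to 5. In the follicular phase it was at 25.0, 23.7, 17.6, 23.0 and 20.5, below every luteal phase ovary. The log2 fold change was 1.27 (standard error 0.19, limma adjusted p = 0.000358). FADS1, the delta-5 desaturase that acts later on the same path, rose by 0.87 on the log2 scale (limma adjusted p = 0.00600), from a range of 14.97 to 21.5 in the follicular phase to one of 19.0 to 43.8 in the luteal phase. FADS1 and FADS2 are next to each other in the RefSeq gene order of the goat assembly ARS1.2.

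The elongases moved in opposite directions. The ELOVL enzymes catalyse the first step in which a fatty acid is lengthened, each with its own preferred chain length. All 6 ELOVL genes were called, 4 higher (66.7%, against 15.9% of all genes tested) and 2 lower (33.3%, against 27.8%) in the luteal phase. ELOVL5, which acts on polyunsaturated chains of medium length, was at 90.5, 116, 68.9, 81.3 and 85.8 FPKM in luteal phase replicates 1 to 5 and at 23.2, 40.0, 22.8, 28.1 and 22.2 in the follicular phase. The phases did not overlap, and the log2 fold change was 1.71 (standard error 0.17, limma adjusted p = 2.91e-05). ELOVL6, which turns palmitate into stearate, was at 27.9, 34.5, 16.3, 32.2 and 32.6 in luteal phase ovaries and at 12.3, 7.28, 5.71, 9.79 and 9.23 in follicular phase ovaries. Luteal phase replicate 3 was again the lowest of its phase but stood above all follicular phase ovaries (log2 fold change 1.69, standard error 0.23, limma adjusted p = 0.000247). ELOVL7, an elongase of saturated and monounsaturated long chains, was at 10.3, 11.1, 9.47, 12.05 and 12.9 in luteal phase ovaries and at 4.89, 4.80, 3.23, 3.54 and 3.23 in follicular phase ovaries. Every luteal phase ovary was higher (log2 fold change 1.49, standard error 0.14, limma adjusted p = 2.09e-05).

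ELOVL1, which makes saturated chains of very great length, was higher by 0.44 (limma adjusted p = 0.00462), at 18.7 to 26.4 against 15.7 to 19.5. Lower in the luteal phase were ELOVL4, which extends the longest chains of skin, retina and testis, and ELOVL2, which extends polyunsaturated chains toward docosahexaenoic acid. ELOVL4 ranged from 2.53 to 3.84 FPKM in luteal phase ovaries and from 3.93 to 6.74 in follicular phase ovaries (log2 fold change -0.70, limma adjusted p = 0.00767). ELOVL2 had the lowest level of the 42 genes, at 0.137 to 0.489 and 0.416 to 0.816 (log2 fold change -0.94, adjusted p = 0.0178), and it was not tested where a minimum of 0.5 FPKM was required. The ratio of ELOVL5 to ELOVL2 within an ovary was between 146 and 594 in luteal phase ovaries and between 28.8 and 67.4 in follicular phase ovaries. The ratio sets a gene of high level against one of very low level.

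**Figure D2:**
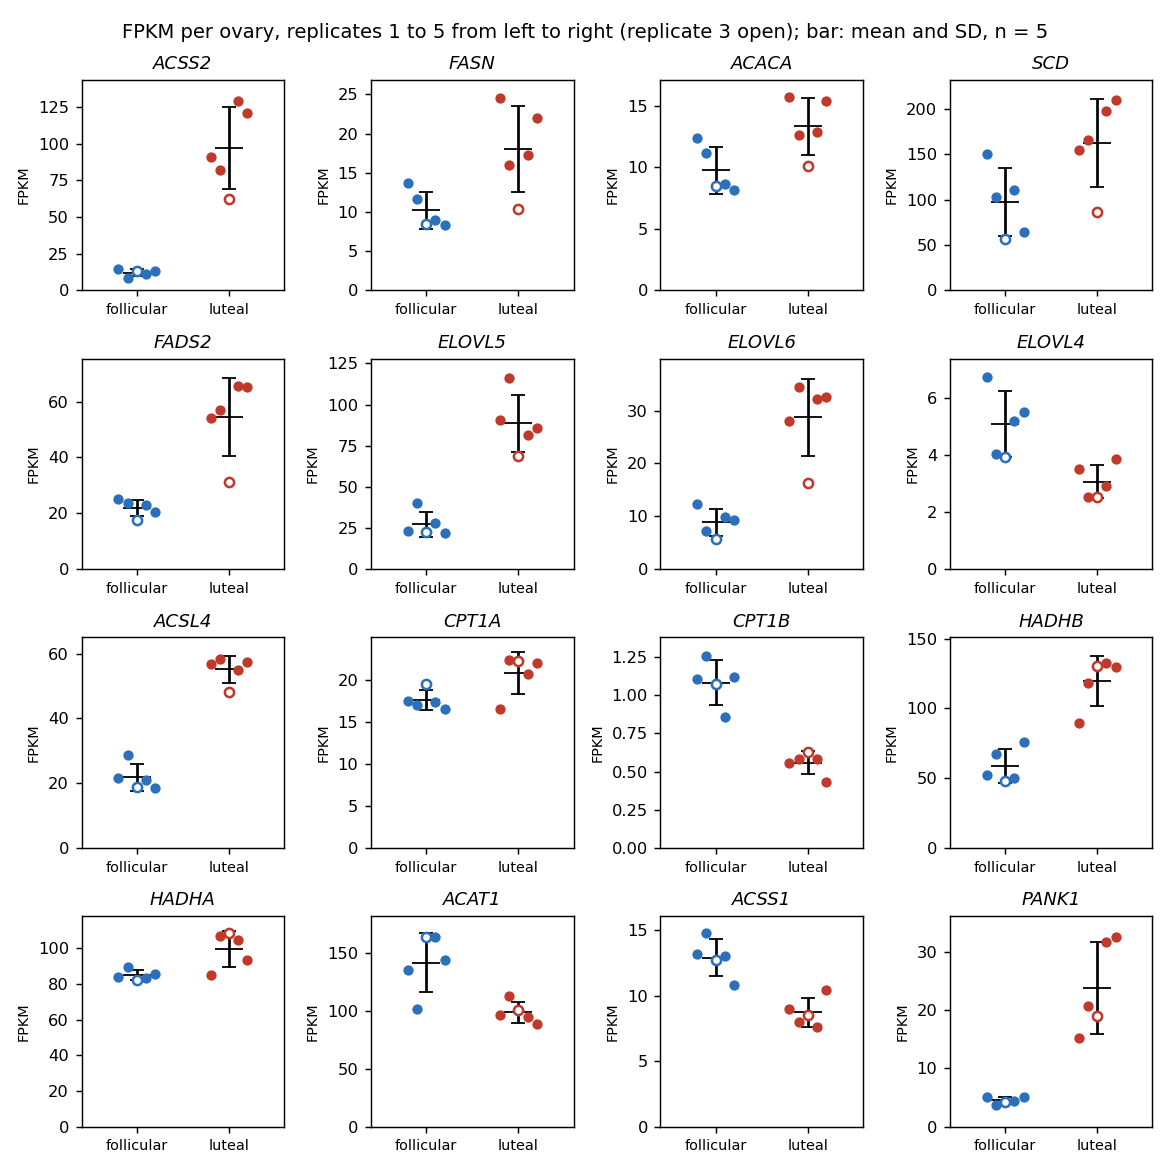
FPKM (y axis, from 0) of 16 genes in each ovary of the follicular (blue) and luteal phase (red), with replicates 1 to 5 from left to right, replicate 3 as an open circle, and the mean and SD as bars (n = 5). ACSS2, ELOVL5, ELOVL6 and PANK1 show separate phases, CPT1A overlaps, ELOVL4, CPT1B, ACAT1 and ACSS1 are lower in the luteal phase, and luteal phase replicate 3 is the lowest luteal point for ACSS2, FASN, ACACA, SCD, FADS2, ELOVL5 and ELOVL6.

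Acyl-CoA synthetases of the ACSL family attach coenzyme A to long-chain fatty acids and so feed both synthesis of lipids and oxidation. Of the 5 members, 2 were called (40.0%, near the 43.7% of all genes tested), and both were higher in the luteal phase. ACSL4, which prefers arachidonic acid and is known from steroid-making cells, was at 56.9, 58.4, 48.2, 54.9 and 57.3 FPKM in luteal phase replicates 1 to 5. The follicular phase ovaries were at 21.7, 28.7, 18.7, 21.1 and 18.6, so that the groups were far apart compared with their spread. The log2 fold change was 1.35 (standard error 0.11, limma adjusted p = 7.74e-06). ACSL5, found on mitochondria and the endoplasmic reticulum, was at 24.0 to 30.0 and 14.0 to 24.0 (log2 fold change 0.74, limma adjusted p = 0.00189). Follicular phase replicate 2 gave the upper end of the follicular range, and the other 4 follicular phase ovaries were at 15.1 or below. ACSL3 of lipid droplets (log2 fold change 0.16, adjusted p = 0.351), ACSL1 (-0.04, adjusted p = 0.784) and ACSL6 (-0.40, adjusted p = 0.0862) were not called, with levels of 15.5 to 24.6, 5.68 to 7.78 and 0.616 to 1.37 over the 10 ovaries. ACSL6 passed the threshold without follicular phase replicate 1 (limma adjusted p = 0.0492).

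The carnitine system showed 1 gene higher (33.3%, against 15.9% of all genes tested), 1 lower (33.3%, against 27.8%) and 1 not called. CPT1A, the carnitine palmitoyltransferase of the outer mitochondrial membrane whose activity limits the entry of long-chain fatty acids, was at 16.4, 22.3, 22.3, 20.7 and 22.01 FPKM in luteal phase replicates 1 to 5. In the follicular phase it was at 17.5, 17.0, 19.5, 17.3 and 16.5. The other luteal phase ovaries, all but replicate 1, stood above every follicular phase ovary, and replicate 1 was below all of them. The log2 fold change, 0.23 (standard error 0.09, limma adjusted p = 0.0619), missed the threshold. It passed without luteal phase replicate 1 (0.31, adjusted p = 0.00620), without follicular phase replicate 3 (0.27, adjusted p = 0.0497), with a common median (0.32, adjusted p = 0.0293) and on the TPM scale (0.33, adjusted p = 0.0253), and over all alternatives the adjusted p ran from 0.00620 to 0.128. CPT1B, the form of striated muscle, was low and fell from 0.856 to 1.26 in the follicular phase to 0.431 to 0.630 in the luteal phase (log2 fold change -0.85, limma adjusted p = 0.00133). CPT2 of the inner membrane was at 14.5 to 19.9 in luteal phase ovaries and 10.8 to 12.2 in follicular phase ovaries (log2 fold change 0.50, limma adjusted p = 0.00183). The ratio of CPT1A to CPT1B was 29.7 to 51.1 in the luteal phase ovaries and 13.5 to 20.2 in the follicular phase ovaries.

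In mitochondrial beta-oxidation, 7 of the 10 genes in the table were called, all of them higher in the luteal phase (70.0%, against 15.9% of all genes tested), and the 10 fold changes were all above 0 as deposited (HADH fell just below 0 after quantile normalization, and ECI1 without follicular phase replicate 3 or 5). The median log2 fold change was 0.29, against -0.14 over all genes tested. The spiral shortens a fatty acid by dehydrogenation, hydration, a second dehydrogenation and thiolysis. For long chains the last 3 steps are carried out by the trifunctional protein, whose alpha and beta subunits are encoded by HADHA and HADHB. HADHB was at 89.3, 118, 130.1, 132 and 129.5 FPKM in luteal phase replicates 1 to 5 and at 52.5, 67.2, 48.1, 50.3 and 75.8 in the follicular phase. The phases did not overlap, and the log2 fold change was 1.03 (standard error 0.15, limma adjusted p = 0.000289). HADHA ranged from 84.8 to 108 in luteal phase ovaries and from 82.3 to 89.7 in follicular phase ovaries, and its log2 fold change was 0.22 (standard error 0.08, limma adjusted p = 0.0335). Its call was lost in 7 of 10 analyses with 1 ovary removed (adjusted p of 0.0539 to 0.0784), with calls kept without luteal phase replicate 1 or 5 or follicular phase replicate 2. It was also lost in the fit without a variance trend (adjusted p = 0.0569) and after quantile normalization, where the log2 fold change was 0.11 (adjusted p = 0.265). The ratio of HADHB to HADHA was 1.05 to 1.38 in luteal phase ovaries and 0.585 to 0.883 in follicular phase ovaries, so the 5 luteal phase ovaries had more HADHB than HADHA per length and the 5 follicular phase ovaries had less. HADHA and HADHB are next to each other in the RefSeq gene order.

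Among the acyl-CoA dehydrogenases, which take the first step, ACADS for short chains changed most. It was at 17.8 to 20.2 FPKM in luteal phase ovaries and 8.44 to 11.0 in follicular phase ovaries (log2 fold change 0.92, standard error 0.08, limma adjusted p = 1.46e-05). ACADL, at 7.81 to 10.8 and 6.78 to 7.96, and ACADVL for very long chains, at 33.7 to 46.9 and 29.8 to 35.3, were called with smaller changes and overlapping ranges (log2 fold changes 0.39 and 0.30, limma adjusted p = 0.00747 and 0.0218). The call for ACADVL was lost without luteal phase replicate 4 (adjusted p = 0.0558) or follicular phase replicate 3 (0.0530). Of the later steps, ECHS1, the enoyl-CoA hydratase of short chains, was at 87.4 to 98.7 against 50.6 to 68.7 (log2 fold change 0.65, limma adjusted p = 0.000297). ACAA2, the thiolase of the mitochondrial matrix, was at 39.2 to 51.0 against 36.0 to 39.0 (log2 fold change 0.27, limma adjusted p = 0.0107). HADH, the hydroxyacyl-CoA dehydrogenase of medium and short chains, was not called and differed little in level, at 42.7 to 49.98 and 41.3 to 46.3 (log2 fold change 0.06, standard error 0.06, adjusted p = 0.451). The enoyl-CoA isomerases ECI1 and ECI2, which handle unsaturated chains, were not called either (log2 fold changes 0.05 and 0.10, adjusted p = 0.745 and 0.681), and ECI2 is also a peroxisomal enzyme.

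The 3 peroxisomal genes of the list had fold changes below 0 as deposited, though ACOX2 turned above 0 under the common median, quantile and TPM scalings. The median over all genes tested was itself -0.14, and 9524 of the 15359 were below 0. Peroxisomal genes outside the list, such as PHYH, are counted below with the oxidation group, where 15 of 28 were higher (53.6%) and 1 lower (3.57%). ACOX3, an acyl-CoA oxidase for branched chains, was at 5.32 to 7.998 FPKM in luteal phase ovaries and 6.59 to 8.98 in follicular phase ovaries (log2 fold change -0.37, limma adjusted p = 0.0429). This call was lost in 11 of 19 alternatives, with adjusted p up to 0.177 on the TPM scale, where the log2 fold change was -0.27. Among the analyses with 1 ovary removed it was kept in 3, those without luteal phase replicate 1 or follicular phase replicate 2 or 4. ACAA1, the peroxisomal thiolase, was at 24.3 to 26.5 and 25.0 to 33.3 (log2 fold change -0.14, adjusted p = 0.196). ACOX2, the oxidase of bile acid precursors, was at 3.33 to 8.61 and 3.88 to 5.73 (log2 fold change -0.06, standard error 0.24, adjusted p = 0.853), and its highest value came from luteal phase replicate 3, while the other luteal phase ovaries stayed at 4.01 or below.

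The enzymes that join 2-carbon units and ketone bodies were all called, 3 higher (60.0%, against 15.9% of all genes tested) and 2 lower (40.0%, against 27.8%). ACSS1, the mitochondrial counterpart of ACSS2, was lower in the luteal phase, at 7.62 to 10.46 FPKM against 10.8 to 14.8 (log2 fold change -0.56, limma adjusted p = 0.00168). The cytosolic and the mitochondrial acetate enzyme therefore moved in opposite directions, and the ratio of ACSS2 to ACSS1 was 7.29 to 17.0 in the luteal phase ovaries and 0.551 to 1.23 in the follicular phase ovaries. ACAT1, the mitochondrial acetoacetyl-CoA thiolase, was the most abundant of the 42 genes in the follicular phase, at 101 to 164, and was at 88.3 to 113 in the luteal phase (log2 fold change -0.50, limma adjusted p = 0.00805). Follicular phase replicate 2 was the lowest of its phase, and without it 4 follicular phase ovaries at 135 to 164 stood above all luteal phase ovaries. OXCT1, the enzyme that lets tissues outside the liver use ketone bodies, was at 16.2 to 20.1 against 10.8 to 15.7 (log2 fold change 0.45, limma adjusted p = 0.00733). BDH1, which interconverts the main ketone bodies, was at 4.70 to 8.14 against 2.33 to 5.38 (0.79, limma adjusted p = 0.0160), and CRAT, the carnitine acetyltransferase that buffers acetyl-CoA, at 9.85 to 14.7 against 6.23 to 7.91 (0.77, limma adjusted p = 0.000389).

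**Figure D3:**
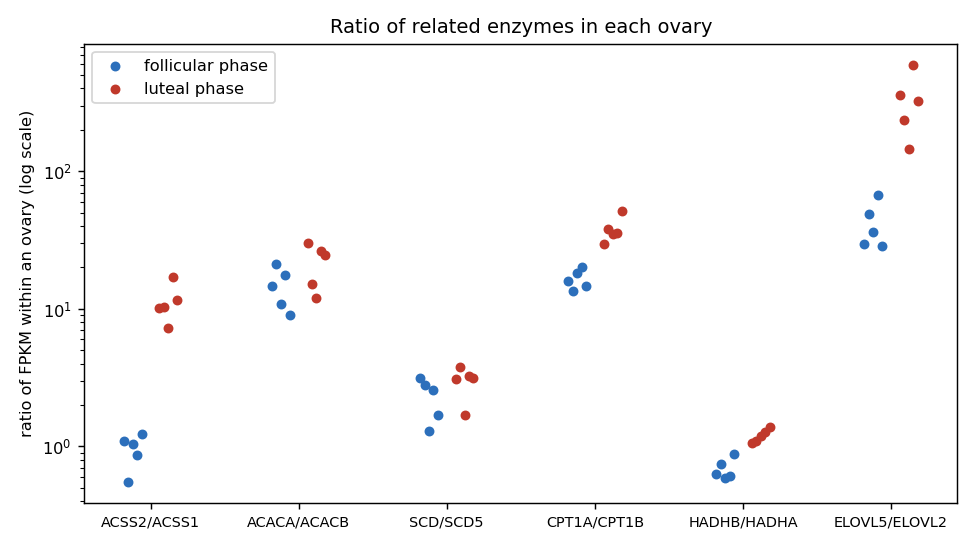
Ratio of the FPKM of related enzymes within each ovary (y axis, log scale) for 6 pairs in the follicular (blue) and the luteal phase (red). ACSS2 over ACSS1 is 7.29 to 17.0 in the luteal and 0.551 to 1.23 in the follicular phase, HADHB over HADHA is 1.05 to 1.38 and 0.585 to 0.883, and the phases overlap for ACACA over ACACB and for SCD over SCD5.

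The 6 ratios were picked by enzyme kinship after the values were seen, and no test was run on them. SCD over SCD5 was 1.70 to 3.75 in luteal phase ovaries and 1.29 to 3.16 in follicular phase ovaries.

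PANK1 encodes pantothenate kinase, the first and rate-limiting enzyme of the synthesis of coenzyme A, the carrier of every acyl group named above. Luteal phase replicates 1 to 5 were at 15.1, 20.7, 19.0, 31.6 and 32.6 FPKM and follicular phase replicates 1 to 5 at 5.11, 3.66, 4.24, 4.48 and 5.10. Each luteal phase ovary was far above the follicular phase range (log2 fold change 2.32, standard error 0.20, limma adjusted p = 9.96e-06). Of 6 other genes of coenzyme A synthesis, 2 were called (33.3%, against 43.7% of all genes tested). PANK3 was called higher (0.19, adjusted p = 0.0475) and PPCS, which joins phosphopantothenate with cysteine, lower (-0.34, adjusted p = 0.0240).

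The PANK1 sum was divided among its 4 transcripts in other proportions in each phase. The 42 genes had 88 transcripts in the table, 16 genes had more than 1, and 77 transcripts passed the limit of 0.1 FPKM in 5 ovaries. Of these 77, 23 were called higher and 5 lower in the luteal phase, where 17.3% of all transcripts tested were called, 7.47% higher and 9.82% lower. PANK1 was the gene with transcripts called in both directions. Its transcript XM_005698201.3 was at 12.02, 16.9, 14.8, 27.3 and 28.1 FPKM in luteal phase replicates 1 to 5 and at 0.720, 0.468, 0.00425, 0.290 and 0.317 in the follicular phase. It made up 83.3% of the PANK1 sum in luteal phase ovaries and 7.96% in follicular phase ovaries (log2 fold change 5.63, standard error 0.50, limma adjusted p = 6.89e-05). XM_018041475.1 went the other way, from 1.21 to 1.84 in the follicular phase to 0.423 to 0.950 in the luteal phase (log2 fold change -0.94, limma adjusted p = 0.0260), and XM_018041474.1 was not called, at 2.58 to 3.33 against 1.77 to 2.78 (0.38, adjusted p = 0.130).

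ACSS2 was likewise carried by more than 1 transcript. XM_018057750.1 held 67.3% of the sum in luteal phase ovaries and 83.0% in follicular phase ovaries, and its own log2 fold change was 2.69 (limma adjusted p = 1.62e-05). XM_018057751.1 was at 16.3 to 45.1 FPKM in luteal phase ovaries and 0.253 to 5.67 in follicular phase ovaries (log2 fold change 4.61, limma adjusted p = 0.00101). For 8 genes the sum was called but no transcript was, in the test over all transcripts. These were SCD, SCD5, ELOVL2 and HADHA, with 1 transcript each, and ACACA, ACADVL, ACOX3 and ELOVL6, with more. The 3 transcripts of ELOVL6 had a limma adjusted p of 0.0628 to 0.421. In ELOVL6 the division between XM_005681308.3 and XM_005681307.3 varied from ovary to ovary. XM_005681308.3 was at 17.1, 19.3 and 17.9 in luteal phase replicates 1, 2 and 4 and listed at 0 in replicates 3 and 5, where XM_005681307.3 was at 11.1 and 22.6 instead of 2.01, 1.91 and 1.82.

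**Figure D4:**
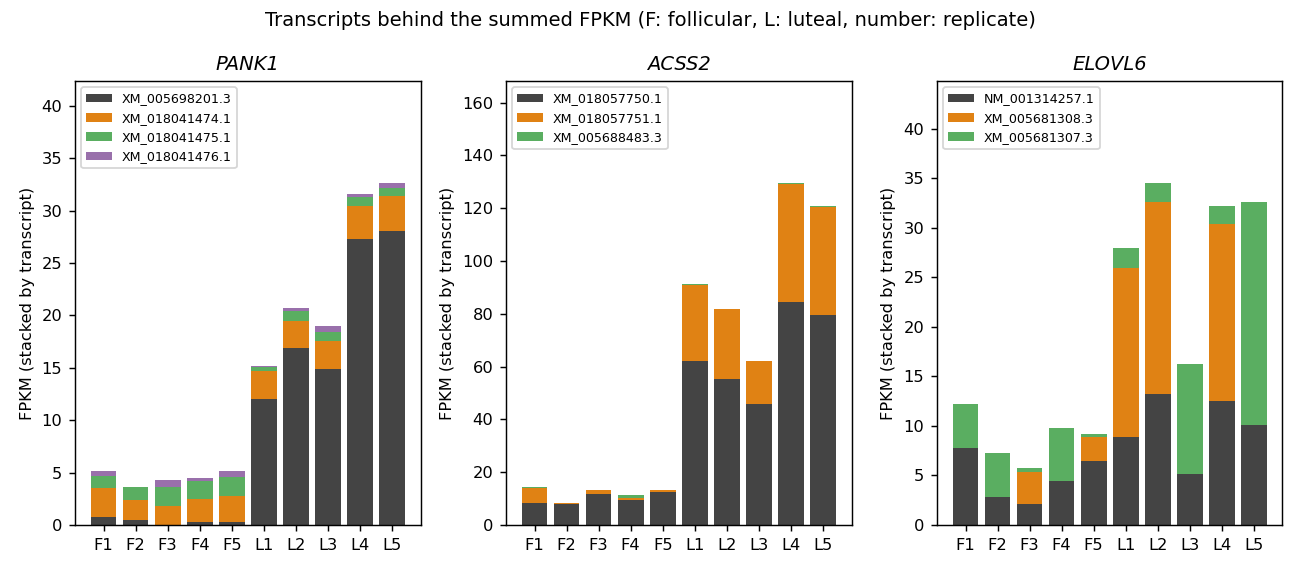
Summed FPKM (y axis) of PANK1, ACSS2 and ELOVL6 in each ovary (F1 to F5 follicular, L1 to L5 luteal), divided by colour into the transcripts of each gene. The PANK1 transcript XM_005698201.3 holds 83.3% of the luteal and 7.96% of the follicular phase sum, and the ELOVL6 sum changes its leading transcript between ovaries of the same phase.

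Of the other genes described in full by rule, HADHB had 1 transcript with 94.4% of its sum and ACACA 1 with 75.4%, and FASN, SCD, FADS2, ELOVL5, ELOVL7, ACSL4 and CPT1A had a single transcript each.

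Synthesis was then set against oxidation. The synthesis arm comprised the 15 genes of new synthesis, desaturation and elongation, and the oxidation arm the 16 genes of carnitine transfer and of mitochondrial and peroxisomal oxidation. In the synthesis arm 12 genes were higher in the luteal phase (80.0%) and 2 lower (13.3%), with a median log2 fold change of 0.78. In the oxidation arm 8 were higher (50%) and 2 lower (12.5%), with a median of 0.23. Over all genes tested these shares were 15.9% and 27.8%, and the median was -0.14. The mean log2(FPKM + 0.1) of the synthesis arm was 4.16, 4.19, 3.71, 4.16 and 4.31 in luteal phase replicates 1 to 5 and 3.55, 3.37, 3.11, 3.25 and 3.22 in the follicular phase. For the oxidation arm it was 4.28, 4.45, 4.44, 4.45 and 4.36 in luteal phase ovaries and 4.24, 4.28, 4.13, 4.11 and 4.19 in follicular phase ovaries. The phases did not overlap in either arm, narrowly so for oxidation. The difference of the arms within an ovary, synthesis minus oxidation, was -0.29 ± 0.26 in luteal phase ovaries and -0.89 ± 0.13 in follicular phase ovaries (SD, n = 5 a phase), so that it was higher by 0.60 in the luteal phase. With the median over the genes of an arm in place of the mean, it was higher by 0.97. Since the genes were chosen with earlier results known, no p is given for this difference. It overlapped between the phases through luteal phase replicate 3, at -0.73, which lay below follicular phase replicate 1, at -0.69, whereas the other luteal phase ovaries were between -0.28 and -0.06. Without luteal phase replicate 3 the phases differed by 0.71.

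Summed FPKM gave the same order of the phase means. The synthesis arm summed to 398 to 723 FPKM in luteal phase ovaries and 226 to 357 in follicular phase ovaries, and the oxidation arm to 527 to 626 and 419 to 491. The synthesis sum exceeded the oxidation sum in luteal phase replicates 1, 4 and 5, equalled it nearly in replicate 2 (624 and 623 FPKM) and was below it in replicate 3 and in all 5 follicular phase ovaries. The log2 ratio of the sums overlapped between the phases. Luteal phase replicate 3, at -0.60, lay below follicular phase replicates 1 (-0.36) and 4 (-0.53).

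**Figure D5:**
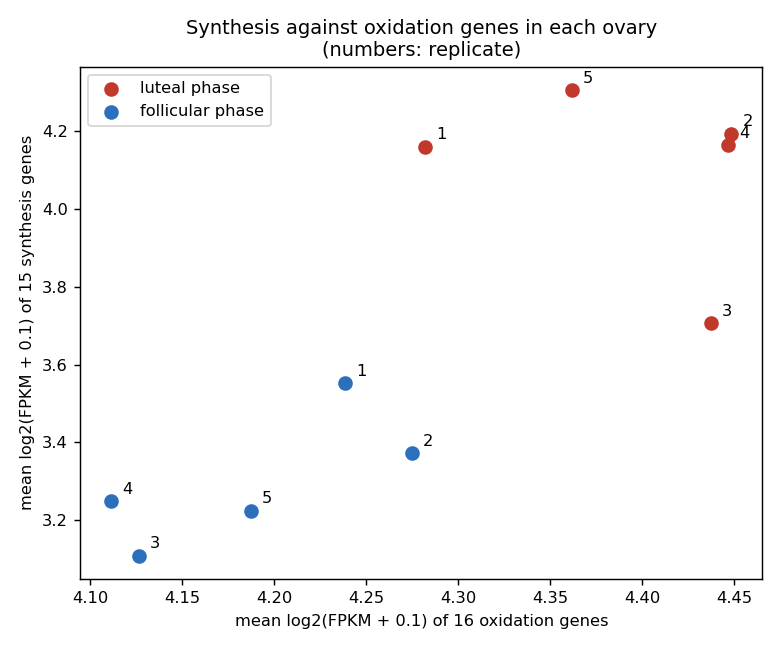
Mean log2(FPKM + 0.1) of the 15 synthesis genes (y axis) against that of the 16 oxidation genes (x axis) in each ovary, luteal in red and follicular in blue, with the replicate number beside each point. Luteal phase ovaries lie higher on each axis, and luteal phase replicate 3, at 3.71 for synthesis and 4.44 for oxidation, lies low on the synthesis axis only.

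Luteal phase replicate 3 stood apart in synthesis. It was the lowest luteal phase ovary for 12 of the 15 synthesis genes and for 2 of the 16 oxidation genes, for which luteal phase replicate 1 was the lowest most often, with 8. Its summed luteal cell markers, 5939, were also the lowest of the phase, where the other 4 ovaries were at 7738 to 8093. Its granulosa markers (92.0 against 158 to 639) and macrophage markers (145 against 160.2 to 196) were the lowest of the phase too, while its stromal markers (5619 against 3352 to 5155) and oocyte markers (19.8 against 8.41 to 13.7) were the highest. The part of these in its synthesis values was not tested. Without it, 25 of the 42 genes were called higher and 5 lower.

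Related genes outside the list were read in the same way. Of 78 such genes that were tested, 36 were higher in the luteal phase (46.2%, against 15.9% of all genes tested) and 8 lower (10.3%, against 27.8%), and the median log2 fold change was 0.25. In the synthesis group, which holds carbon supply, further desaturases and the later steps of elongation among others, 7 of 17 were higher (41.2%) and 3 lower (17.6%). Its median log2 fold change was 0.22. The largest changes there were FADS6, at 14.995 ± 5.57 against 3.47 ± 0.712 FPKM (log2 fold change 2.01, limma adjusted p = 0.000111), and ACLY, which makes cytosolic acetyl-CoA from citrate, at 132 ± 26.3 against 40.95 ± 8.23 (1.69, limma adjusted p = 3.36e-05; SD, n = 5 a phase). In the oxidation group 15 of 28 were higher (53.6%) and 1 was lower (3.57%), with a median of 0.36. Outside the list the oxidation median was thus above the synthesis median. This is the reverse of the arms, at 0.78 for synthesis and 0.23 for oxidation. The largest changes were ACAT2 (2.33, limma adjusted p = 1.88e-05) and PHYH, which starts the breakdown of phytanic acid in peroxisomes (1.83, limma adjusted p = 6.34e-06). ACAT2 is counted in this group although it is a cytosolic thiolase of sterol synthesis rather than of oxidation.

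Of 11 genes of uptake and binding, 6 were higher (54.5%, against 15.9% of all genes tested) and 1 lower (9.09%, against 27.8%). FABP3, a fatty acid-binding protein, was at 559.9, 588, 94.3, 460.0 and 335 FPKM in luteal phase replicates 1 to 5 and at 4.07 to 8.12 in the follicular phase (log2 fold change 5.87, standard error 0.43, limma adjusted p = 2.91e-06), with luteal phase replicate 3 again the lowest of its phase. DBI, the acyl-CoA-binding protein, was at 151 to 275 and 48.3 to 98.6 (1.49, limma adjusted p = 0.000170). Among 16 regulators, 7 were higher (43.8%, against 15.9%) and 2 lower (12.5%, against 27.8%). INSIG1, which holds sterol-regulated transcription factors back, was at 19.9 to 66.3 against 9.34 to 11.97 (1.88, limma adjusted p = 0.000352), and PPARG, a nuclear receptor of fat storage, was at 9.70 to 13.6 against 16.8 to 26.8 (-0.97, limma adjusted p = 0.000189).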

How the data were processed

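Each ovary gave 1 strand-specific library of rRNA-depleted RNA, read from both ends. The authors aligned reads with HISAT2, assembled them with StringTie and deposited FPKM per transcript from Cuffdiff; the genome build is not given in the sources used here. Read counts were not used here, so only the spread between ovaries (n = 5 a phase) measures precision.

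FPKM of protein-coding transcripts were summed by symbol and fitted as log2(FPKM + 0.1) with limma 3.58.1 (lmFit, eBayes with trend) in R 4.3.3, with no covariate. Genes with an FPKM of 0.1 or more in 5 of 10 ovaries entered. The fit was also run on simulated independent values with few genes changed, equally up and down. The data here have many calls, mostly lower, so that run does not check the calls made here. Lists and figures used Python 3.11.15, pandas 2.3.3 and matplotlib 3.10.9. The members, lists and tests were chosen with earlier results of these data known. Values of every ovary are given for calls with a log2 fold change of at least 1 and for FASN, ACACA, SCD, CPT1A and PANK1; outside the list, the 2 largest called changes per group are named. The markers CYP11A1 and CYP17A1 were matched through RefSeq synonyms (assembly ARS1.2). No sequences were used here. The alternatives were the TPM scale, quantile normalization, a shift to a common median, a constant prior variance (eBayes without trend), another pseudocount (1 or 0.01), another minimum (none or 0.5 FPKM), the replicate number as a block, and the removal of each ovary; for the arms also medians, the log2 ratio of sums and ACACB left out.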

Additional observations from a re-analysis of the deposited data

Results flagged for a closer look

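In 10 of the 86 sets of 5 ovaries examined (42 genes and the difference of the arms, in each phase), the highest or lowest ovary lay so far out that its gap to the nearest ovary, divided by the range of the phase, exceeded Dixon's 95% critical value for 5 samples. About 1 in 20 sets of independent, normally distributed values would pass that limit. The sets here share the same ovaries, so no excess over that rate is claimed. Follicular phase replicate 2 was the high ovary in 4 sets, namely ACSL5 (24.0 FPKM against 14.0 to 15.1, ratio 0.889), ECI2 (36.8 against 19.1 to 22.3, ratio 0.817), ACSL3 (24.1 against 15.97 to 18.0, ratio 0.756) and AACS (11.8 against 8.09 to 9.13, ratio 0.718). Luteal phase replicate 3 was high for ACOX2 (8.61 against 3.33 to 4.01, ratio 0.870) and low for AACS (10.8 against 19.7 to 22.03, ratio 0.795). Luteal phase replicate 1 was high for ACOX3 (7.998 against 5.32 to 5.86, ratio 0.799) and low for CPT1A (16.4 against 20.7 to 22.3, ratio 0.722). HADH was high in luteal phase replicate 4 (49.98 against 42.7 to 44.3, ratio 0.778) and in follicular phase replicate 1 (46.3 against 41.3 to 42.2, ratio 0.818).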

How the results depend on the processing

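Of the 32 called genes, 26 were called in every alternative in which they were tested (ELOVL2 was not tested at a minimum of 0.5 FPKM), and ACACA, SCD, SCD5, ACADVL, HADHA and ACOX3 lost the call in some. No called gene changed direction. The number of calls among the 42 genes ran from 26, without luteal phase replicate 4, to 32. Over all genes, 4272 were lower in the luteal phase as deposited and 2610 on the TPM scale. The difference between the phases, luteal minus follicular, in synthesis minus oxidation was 0.97 with medians in place of means, against 0.60, and 0.54 to 0.71 when 1 ovary was left out. Equal replicate numbers are not known to pair ovaries of the phases. Deviations from the phase means correlated at 0.0258 to 0.199 between equal numbers and at -0.245 to 0.224 between other numbers. Of the 10 ovaries, 5 correlated best with their own number. With a replicate block 32 of the 42 genes were called, as without it, while called transcripts lower in the luteal phase went from 5 to 3 and those in all from 28 to 22. Uncalled fold changes near 0 turned sign. After quantile normalization ACACB went to 0.014, HADH to -0.0070, ACSL1 to 0.0445 and ACOX2 to 0.022. With a common median ACSL1 went to 0.0441 and ACOX2 to 0.024, and on the TPM scale to 0.057 and 0.036. With 1 ovary left out, ACSL1 ran from -0.11 to 0.0065, ECI1 from -0.014 to 0.11 and ACOX2 from -0.30 to 0.034. The cause was not tested in any of these cases. Counts per gene were not used here, so the precision of the lowest genes (ELOVL2, ACACB, CPT1B and ACSL6, all under 1 FPKM on average) could be judged only from the spread between ovaries.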
